A study of Mus musculus with 9 samples.

Results

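Long intergenic noncoding RNAs (lincRNAs) were examined in mouse embryonic stem (ES) cells. A row of the counts table was included where its Ensembl identifier carried the biotype lincRNA in GENCODE mouse release 21 (build mm10) and its mean level across all libraries reached 2 CPM (counts scaled to the library total), so that members were chosen by annotation and by level. Gm42418, which collects 6.11% to 8.11% of a library's counts, and a set of imprinted transcripts were left out by the rule. Of 52550 genes listed, 5009 were lincRNAs, 1242 of those had at least 1 count, 118 reached the threshold, and 114 remained after 4 exclusions. The threshold used the level over both groups together and not the difference between them. Such a mean still admits rows that are high in a single group. Examples are Gm42047 (group means of 6.21 CPM in WT and 0.0612 in DKO), D030068K23Rik (5.52 and 0.128) and 2610035D17Rik (1.04 and 2.85). The place of such rows among the members is therefore tied to their difference. The lowest members were 4932422M17Rik (2.012 CPM), 2610035D17Rik (2.042) and Platr20 (2.06), and just outside lay Gm26847 (1.985), Gm44983 (1.979) and Gm26841 (1.964).

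The cells were V6.5 ES cells, a hybrid mouse line, in 4 libraries labelled wild type (WT) and 5 labelled as double knockout of KLF2 and KLF4 (DKO), a pair of zinc finger transcription factors of naive pluripotency. The medium of every library held LIF, 15% FBS and 2i, the pair of 2 inhibitors against GSK and MEK. Each library came from 600 ng of total RNA by QuantSeq forward, a kit that primes on poly(A) and reads near the 3′ end of a transcript. The labels give neither the deleted parts nor the number of clones, and do not say that replicates were separate cultures, so p-values measure no more than how these samples vary, possibly for technical reasons.

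LincRNAs are transcribed from their own units between coding genes, spliced and polyadenylated much like messenger RNA, and do not encode a known protein. Some build nuclear bodies, some carry small nucleolar RNAs (snoRNAs) or microRNAs in their introns, and some act near their own site of transcription. In ES cells several were named for their loss when pluripotency ends.

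Library totals ran from 6557408 to 7098530 counts in WT and from 6035642 to 6617834 in DKO, and 3 counts in a library corresponded to 0.423 to 0.497 CPM. The summed CPM of 10 ES cell markers was 2439 to 2588 in WT and 2990 to 3134 in DKO, with 6 of them higher (Dppa5a, Sox2 and others) and 3 lower (Lin28a by a log2 fold change of -1.14, Tdgf1 -0.82 and Zfp42 -0.20). Pou5f1 did not pass the test (-0.15). Over all genes tested 23.9% were higher and 24.0% lower (edgeR, adjusted p under 0.05). None of 10 feeder fibroblast markers was high enough to be tested (sum 1.48 to 4.40 CPM, Col6a1 and Lum at 0). The sum of 6 trophoblast markers was 6.43 to 10.3 CPM in WT and 4.39 to 8.95 in DKO, with Tpbpa at 0. Gata3, the only 1 of them tested, fell (-0.90), while Krt7 had means of 0.143 CPM in WT and 1.22 in DKO. The sum of 6 primitive endoderm markers was 2.5 to 3.55 CPM in WT and 4.10 to 5.53 in DKO. The higher sum came mostly from Sox7, at group means of 0.148 CPM in WT and 2.99 in DKO, with Foxa2 at 0.371 and 0.821, while Sox17 (1.03 and 0.121), Gata4 (0.692 and 0.35) and Gata6 (0.259 and 0.0941) had lower means in DKO; of these 5 genes only Sox7 had enough counts to be tested. The part of these markers in any result was not tested. The libraries labelled DKO held more reads of Klf2 (3750 to 4044 counts, with 3042 to 3297 in WT) and of Klf4 (9385 to 10778, with 5085 to 6183 in WT). As the deleted parts are not given, and reads outside a deleted part check nothing, the label could not be checked from these reads. Every direction given is therefore one between the labels, DKO relative to WT.

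The share of lincRNAs that differed between the groups was close to that of all genes. Of the 114 members, all of which entered the test, 25 were higher and 30 lower with the DKO label (edgeR, adjusted p under 0.05), which is 48.2% of them. Over all 11893 genes tested the share was 47.8%, with 23.9% higher and 24.0% lower. The median log2 fold change was -0.02 for the members and 0.01 for all genes. Changes of at least 2-fold were found in 10 members upward (8.77%) and 16 downward (14%), where all genes gave 4.14% and 6.05%. Members are mostly low in level, and among genes of 2 to 20 CPM the shares of such changes were 6.16% and 8.69%, beside 9.47% and 14.7% of the 95 members in that range. Within it, 58 members lay at only 2 to 5 CPM and held 9 of these rises and 10 of these falls. The share over all genes at 2 to 5 CPM was not measured, so the part of level in this difference was not tested. Of the 19 members at 20 CPM or more, 15 passed (78.9%), beside 54.7% of all genes at that level. The groups did not overlap for 18 members that were higher and 24 that were lower, 36.8% together, and over all genes this share was 37.4%, with 18.4% higher and 19.1% lower.

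**Figure D1:**
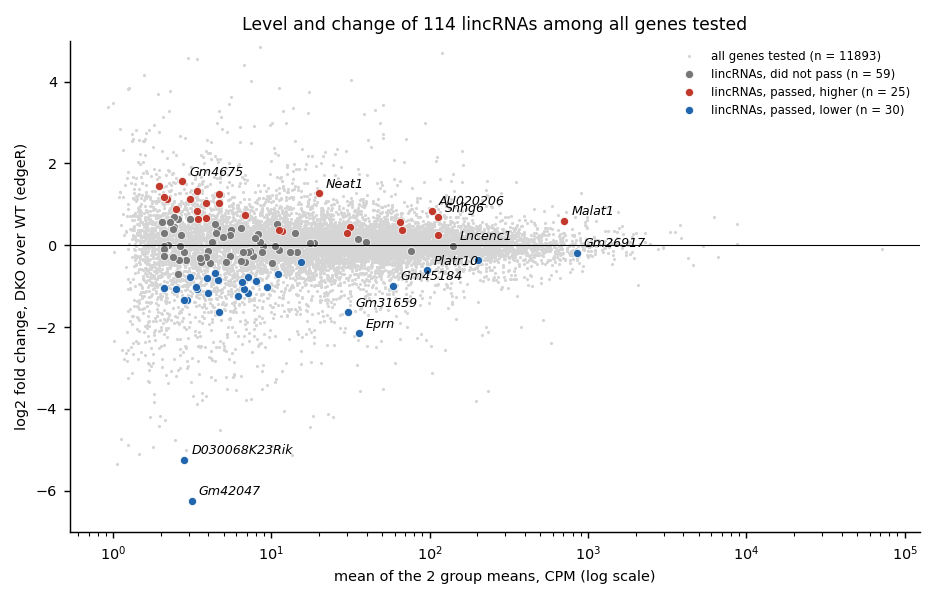
Each point is a gene, with its level on the x axis (mean of the group means in CPM, log scale) and the edgeR log2 fold change of DKO over WT on the y axis. The 114 lincRNAs are drawn over the 11893 genes tested, with the 25 that rose in red, the 30 that fell in blue and the 59 that did not pass in grey. Gm42047 and D030068K23Rik lie lowest among the lincRNAs, below -5.

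A small number of transcripts carried most lincRNA reads. The top 2 members, Gm26917 and Malat1, held 46.7% of all counts on members, the top 10 held 74.0% and the top 20 held 84.9%. Members took 0.325% ± 0.00648 of a WT library's counts and 0.340% ± 0.0158 of a DKO library's (SD, n = 4 and 5). Without the top 2 these shares were 0.179% ± 0.00473 and 0.176% ± 0.00195. These are shares of reads at 3′ ends and do not scale with transcript length.

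Malat1 and Neat1, neighbouring transcripts that localise to nuclear speckles and build paraspeckles respectively, both rose. Malat1 (ENSMUSG00000092341, chromosome 19, 5795690 to 5802672, minus strand, a single exon block) stood at 587, 498, 616 and 554 CPM in WT 1 to 4 and at 817, 687, 923, 961 and 891 in DKO 1 to 5, on TMM-scaled library sizes, as are all CPM that follow. Every DKO library lay above every WT library, with DKO 2 the lowest of its group. Group means were 564 ± 50.8 and 856 ± 108 CPM, a log2 fold change of 0.60 ± 0.10 (SE, adjusted p = 6.16e-04). Neat1 (ENSMUSG00000092274, chromosome 19, 5824708 to 5845478, minus strand) had 12.1, 11.0, 12.8 and 10.9 CPM in WT and 30.2, 26.6, 30.5, 27.2 and 26.2 in DKO. Its groups were far apart, at 11.7 ± 0.904 and 28.2 ± 2.05 CPM, with a log2 fold change of 1.27 ± 0.11 (adjusted p = 1.43e-11). The median log2 fold change of other tested genes within 1 Mb was -0.14 for Malat1 and -0.15 for Neat1. Exons of other annotated transcripts overlap both genes, on the same strand for Neat1 and on either strand for Malat1, and the strand setting of the counting is not given, so their counts are uncertain to that extent. Among genes of paraspeckle proteins, Hnrnph3 (-0.84), Dazap1 (-0.29), Pspc1 (-0.19) and Rbm14 (-0.15) fell, while Sfpq and Nono, the main partners of Neat1 in the paraspeckle, did not pass (0.06 and -0.22).

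The annotated ends of these transcripts are shown because the kit reads from poly(A), and the mature ends of Malat1 and of the long Neat1 form are cut by RNase P and held in a triple helix of U-rich and A-rich stretches instead of receiving a poly(A) tail. The short Neat1 form is polyadenylated. The first pair of lines gives transcript Malat1-201 at positions 6634 to 6725 of 6983 and Neat1-201 at 20712 to 20771 of 20771, where capitals mark the longest stretch they share, 16 bases. The third is the end of Neat1-202, where capitals mark the polyadenylation signal.
Malat1-201: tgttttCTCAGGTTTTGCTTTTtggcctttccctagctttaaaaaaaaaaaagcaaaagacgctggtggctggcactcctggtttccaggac
Neat1-201: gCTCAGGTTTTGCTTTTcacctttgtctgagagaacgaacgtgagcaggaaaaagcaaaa
Neat1-202: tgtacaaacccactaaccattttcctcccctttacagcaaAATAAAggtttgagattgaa
The run of 12 A in Malat1 lies at positions 6674 to 6685. Counts per gene do not say from which form or end the reads came.

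Gm26917, the member with the most counts, lies on chromosome 17 directly before Gm42418, at a locus known to collect reads of ribosomal RNA. It had 863, 899.9, 883 and 949.8 CPM in WT and 708, 776, 721, 933 and 841 in DKO, so the groups overlapped. The log2 fold change was -0.18 ± 0.06 (adjusted p = 0.0304). Leaving out WT 2, 3 or 4 or DKO 1, 2 or 3 ended the call, with adjusted p from 0.0518 to 0.0883.

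**Figure D2:**
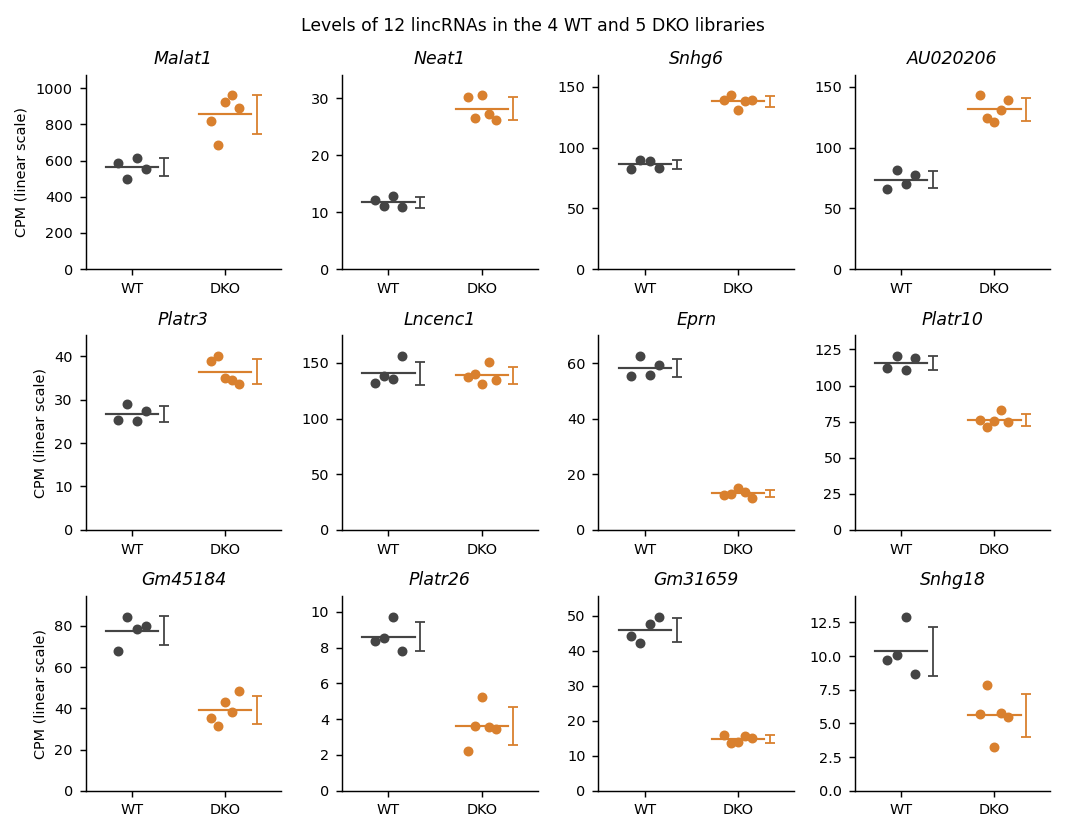
CPM of 12 lincRNAs on linear axes from 0, with a point per library, a line at the group mean and a bar of 1 SD, for 4 WT (dark) and 5 DKO (orange) libraries. Neat1 sits at 10.9 to 12.8 CPM in WT and 26.2 to 30.5 in DKO, Eprn at 55.5 to 62.5 and 11.5 to 15.1, and Lncenc1 overlaps between the groups.

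Transcripts that host snoRNAs moved in both directions. Their introns are processed into the guides of ribosomal RNA modification, while the spliced exons are often short-lived. By coordinates 6 members held an annotated snoRNA, of which Snhg6, Snhg12 and Snhg20 rose, Snhg18 fell, and Epb41l4aos (-0.13) and 2700038G22Rik (0.40) did not pass. Snhg6, host of Snord87 (chromosome 1, 9941959 to 9944118, minus strand), had 82.3, 90.1, 88.6 and 83.4 CPM in WT and 139, 143, 131, 138 and 139 in DKO. The groups were well apart, with a log2 fold change of 0.68 ± 0.06 (adjusted p = 3.95e-12). Its exons overlap Mcmdc2 on the opposite strand. Snhg12, host of Snora16a, Snora44, Snora61 and Snord99, went from 26.8 ± 1.15 to 33.1 ± 3.25 CPM (0.31 ± 0.09, adjusted p = 0.00674). Snhg20 went from 10.3 ± 1.5 to 13.1 ± 1.23 CPM (0.34 ± 0.14, adjusted p = 0.0464), with overlapping groups. That call ended without WT 1, 2 or 3 or DKO 3, 4 or 5 (adjusted p from 0.0573 to 0.145), and with the replicate number as a block (0.0565).

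Hosts of other biotypes, from the same list, also split. Of 18 host transcripts tested, members included, 7 rose and 5 fell, where 23.9% and 24.0% of all genes did. Zfas1 went from 98.0 ± 11.5 to 157 ± 3.92 CPM (0.68) and Snhg14, a long transcript that spans the Prader-Willi region snoRNAs, from 20.9 ± 1.40 to 42.3 ± 2.30 (1.01). Gas5 (0.20) and Snhg5 (0.26) rose by less. Snhg3 (-0.52), Snhg11 (-0.92), Snhg8 (-0.19) and Snhg9 (-0.21) fell. Of 12 genes for snoRNA-binding and assembly proteins 1 rose, Naf1 (0.57), and 6 fell (-0.16 to -0.33), beside the same 23.9% and 24.0%, among them Dkc1, the pseudouridine synthase, at -0.33. Among genes of nonsense-mediated decay, which degrades many spliced host exons, Upf3a rose (0.34), and Upf1 (0.09) and Upf2 (0.11) did not pass.

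**Figure D3:**
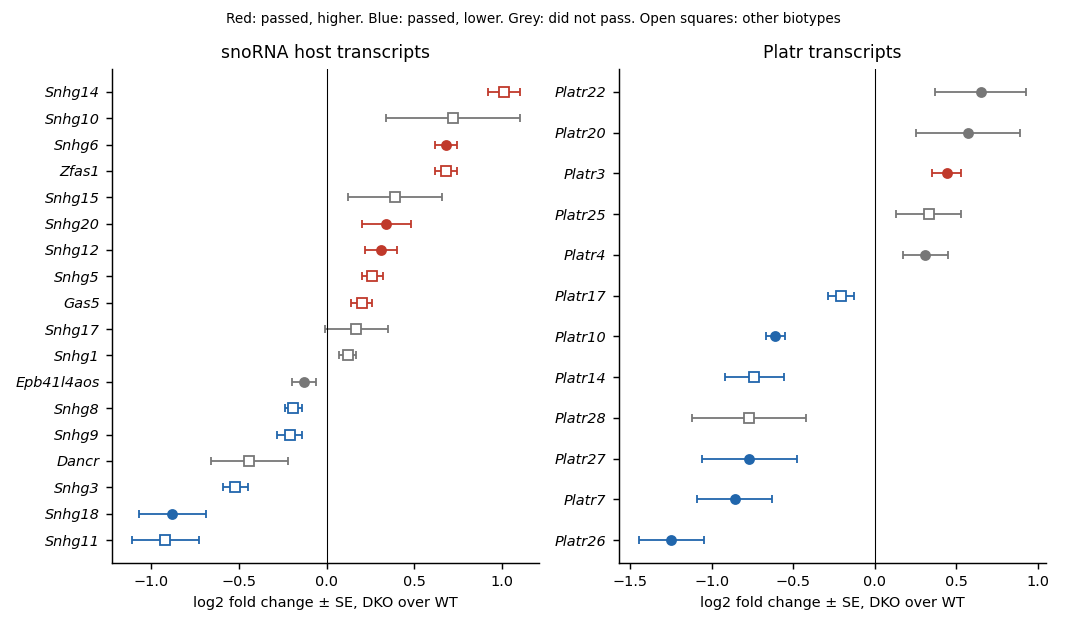
Log2 fold change of DKO over WT with its SE for the 18 snoRNA host transcripts tested (left) and the 12 pluripotency-associated transcripts tested (right). Filled circles are lincRNA members and open squares are genes that are not members, red where they rose, blue where they fell and grey where they did not pass. The squares are genes of other biotypes, as the heading says, and also Snhg10 and Platr28, which are lincRNAs below the level threshold.

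The Platr genes (pluripotency-associated transcripts) were named in a screen for noncoding RNAs lost as ES cells differentiate. Of 30 with a row of counts, 12 were tested, of which 1 rose and 6 fell (all genes: 23.9% higher and 24.0% lower), with a median log2 fold change of -0.41 beside 0.01 over all genes. Among the 8 that were members, Platr3 rose, Platr7, Platr10, Platr26 and Platr27 fell, and Platr4, Platr20 and Platr22 did not pass. Platr10 (chromosome 3, 75647446 to 75655731, minus strand) had 112, 120.3, 111 and 119 CPM in WT and 76.3, 71.0, 75.3, 82.9 and 74.6 in DKO. Its groups were well separated (log2 fold change -0.61 ± 0.06, adjusted p = 2.65e-10). Platr26 fell most among the 12 tested, from 8.38, 8.54, 9.70 and 7.81 CPM to 2.24, 3.60, 5.25, 3.54 and 3.45 (-1.25 ± 0.20, adjusted p = 3.98e-06). Platr7 went from 5.96 ± 0.890 to 3.26 ± 1.07 CPM (-0.86 ± 0.23, adjusted p = 0.00257), without overlap.

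Platr3, the member of the family that rose, had 25.4, 29.1, 25.1 and 27.4 CPM in WT and 38.9, 40, 35.0, 34.6 and 33.5 in DKO (0.44 ± 0.09, adjusted p = 1.26e-04). Plcb4, the only tested gene within 1 Mb of it, stood at 0.50. Platr27 (-0.77, adjusted p = 0.0261) had overlapping groups, since DKO 3 at 4.10 CPM lay within WT. Its call ended without WT 1 or 4 or DKO 1, 2 or 5 (adjusted p from 0.0505 to 0.0803). Platr22 (0.65, adjusted p = 0.0543) passed with the replicate number as a block (0.74, adjusted p = 0.0264) and without DKO 1 or 5 (0.0305 and 0.0327), and Platr4 (0.31, adjusted p = 0.0687) without WT 4 or DKO 2 (0.0348 and 0.0231).

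Eprn had the strongest fall among members with a mean of 20 CPM or more. It is known as Ephemeron, a transcript studied for its part in leaving naive pluripotency, and lies on chromosome 13 (73344665 to 73347384, minus strand, 3 exon blocks). It had 55.5, 62.5, 55.8 and 59.4 CPM in WT and 12.4, 13, 15.1, 13.5 and 11.5 in DKO. The lowest WT library was thus far above the highest DKO library, with means of 58.3 ± 3.31 and 13.1 ± 1.35 CPM and a log2 fold change of -2.15 ± 0.09 (adjusted p = 1.27e-19). Ndufs6, its nearest coding gene, did not pass (0.03), and genes within 1 Mb had a median of -0.01.

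Lncenc1, one of the most abundant lincRNAs of naive ES cells and linked to glycolysis genes there, did not pass. It had 132, 138, 136 and 156 CPM in WT and 137, 140.4, 131, 151 and 135 in DKO (log2 fold change -0.01 ± 0.06, adjusted p = 0.858). Halr1, a transcript beside the Hoxa cluster, went from 4.24 ± 1.32 to 1.66 ± 1.08 CPM (-1.35 ± 0.33, adjusted p = 8.77e-04), and DKO 3 at 3.45 CPM overlapped WT. 1700020I14Rik, the mouse Cyrano transcript known for its microRNA miR-7 site, went from 104 ± 11.5 to 123 ± 7.98 CPM (0.25 ± 0.07, adjusted p = 0.00255), with overlapping groups. Bvht, known from heart development as Braveheart, stood at 10.6 ± 1.14 and 10.5 ± 0.885 CPM and did not pass. Over 11 tested transcripts studied in ES cells, 2 rose and 4 fell, a share near the 47.8% of all genes that passed, the falls including Panct2 (-2.01) and Tunar (-1.15), which carry other biotypes.

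The annotated 3′ ends of 4 of these members are shown because the counts come from that end. Each is the last 60 bases of the named transcript, with the polyadenylation signal (AATAAA) in capitals.
Eprn-201: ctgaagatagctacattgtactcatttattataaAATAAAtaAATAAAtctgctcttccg
Platr10-201: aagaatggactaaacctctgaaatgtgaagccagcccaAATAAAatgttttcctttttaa
Lncenc1-201: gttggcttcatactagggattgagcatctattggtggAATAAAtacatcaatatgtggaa
Snhg6-201: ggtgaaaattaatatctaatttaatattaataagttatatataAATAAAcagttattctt
AATAAA or ATTAAA stood within the last 50 bases of at least 1 annotated transcript for 84 of the 114 members (73.7%) and for 90.2% of 11004 protein-coding genes tested. Among members that rose it was 20 of 25, among those that fell 21 of 30, and among those that did not pass 43 of 59. A run of at least 10 A inside a transcript was annotated for 9 of 25 that rose, 4 of 30 that fell and 12 of 59 others, beside 23.9% of protein-coding genes. The part of such runs in the counts was not tested.

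Other abundant members had no established role in these cells. AU020206 (chromosome 7, 75769038 to 75782099, minus strand) had 65.8, 81.4, 70.2 and 77.3 CPM in WT and 143, 124, 121, 131 and 139 in DKO. All DKO libraries were above all WT libraries (0.84 ± 0.07, adjusted p = 1.20e-12). Gm45184 (chromosome 7, 127434422 to 127439392, plus strand) went the other way, from 67.8, 84.3, 78.6 and 80.1 CPM to 35.1, 31.3, 43.0, 38.1 and 48.5 (-0.99 ± 0.09, adjusted p = 1.71e-09). 1810058I24Rik on chromosome 6, which is known to encode a small mitochondrial protein (Stmp1) although annotated as a lincRNA, had 224 to 232 CPM in WT and 168 to 189 in DKO (-0.35 ± 0.05, adjusted p = 3.84e-07). BC002059 (0.38, 55.1 to 62.8 CPM in WT and 72.2 to 82.8 in DKO) and Tmem250-ps (0.58, 48.0 to 57.6 and 70.9 to 83.5) rose without overlap.

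Among lower members the rises of 2-fold or more by the naming rule were 1110002J07Rik (1.25, 2.09 to 3.69 CPM in WT and 4.19 to 10.6 in DKO), Gdap10 (1.03, 1.22 to 4.55 and 5.33 to 8.32) and the X-linked Mdrl (1.03, 1.83 to 3.12 and 4.24 to 6.24), a transcript named for mitochondrial dynamics. 2610035D17Rik, near the level threshold, rose by 1.45, from 0.568 to 1.65 CPM in WT to 2.36 to 3.44 in DKO. The falls included Gm26564 (-1.17), Gm46332 (-1.08), C78283 (-1.01) and 1700031P21Rik (-0.90). In none of these did the groups overlap, though C78283 ranged from 2.53 to 9.19 CPM within DKO. 4932422M17Rik fell by -1.05 (adjusted p = 0.00927), a call that ended without WT 3 (-0.82, adjusted p = 0.0721).

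LincRNAs that start beside a coding gene on the opposite strand went with that gene wherever both passed. Of 22 members whose start lay within 5 kb of such a start, 20 had a tested partner, and 6 pairs passed on both sides, all 6 in the same direction. The matching share over other neighbouring genes was not measured, so this is not shown to be particular to lincRNAs. In 2 pairs the lincRNA alone passed, in 6 the coding gene alone, and in 6 neither. Across the 20 pairs, which come from the same libraries, the log2 fold changes had Pearson r = 0.523 and Spearman rho = 0.704. Members with the nearest coding start within 50 kb on either strand gave 67 tested pairs, of which 18 passed on both sides, 13 in the same direction and 5 in opposite directions (r = 0.476, rho = 0.466).

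Snhg18 and Sema5a, a semaphorin gene of axon guidance, start 148 bases apart on chromosome 15. Snhg18 (32240565 to 32244662, minus strand), host of Snord123, had 9.72, 10.1, 12.9 and 8.66 CPM in WT and 5.68, 7.83, 3.28, 5.74 and 5.50 in DKO. The groups did not overlap (-0.88 ± 0.19, adjusted p = 2.32e-04). Sema5a went from 10.5 to 1.17 CPM (-3.14 ± 0.22, adjusted p = 4.60e-14), a larger fall than that of its partner. Gm4675, whose exons overlap those of Sox21 on the opposite strand, had 0.852 to 2.06 CPM in WT and 3.30 to 4.73 in DKO (1.56 ± 0.30, adjusted p = 4.22e-05). Sox21, a transcription factor of neural progenitors, went from 8.29 to 82.5 CPM (3.31). As the strand setting of the counting is not given, reads of Gm4675 and Sox21 cannot be told apart with certainty.

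The other concordant pairs were 2610037D02Rik with Arid2 (1.13 and 0.46), a chromatin remodelling subunit, 1110019D14Rik with 2610001J05Rik (-1.06 and -0.27), Gm42047 with Klhdc4 (-6.24 and -1.30), and 4632404H12Rik with the ubiquitin-conjugating Ube2q1 (0.89 and 0.37). The last lincRNA, named after its values were seen, lost its call without WT 4 (0.59, adjusted p = 0.120). Around Gm42047, on chromosome 8, the other tested genes within 1 Mb had a median of -0.60. Gm11496 fell (-1.02) while Trim25 did not pass (0.06). Gm15728 rose (1.14) while Rfc5 did not pass (-0.01), and that rise ended without WT 1 or DKO 4 (adjusted p = 0.0553 and 0.0787).

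**Figure D4:**
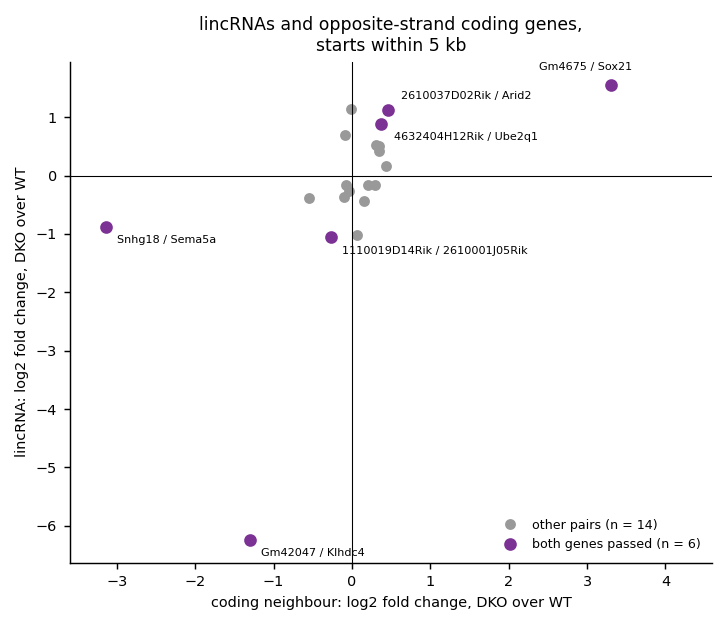
Log2 fold change of DKO over WT for 20 lincRNAs (y axis) and the coding gene that starts within 5 kb on the opposite strand (x axis). The 6 named pairs in purple passed on both sides with values both positive or both negative, and the 14 grey pairs did not.

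Members just downstream of a coding gene on the same strand were counted in the same way, with no test against the opposite-strand pairs. Of 19 that start within 10 kb of such a gene's end, 15 had a tested neighbour, 2 pairs passed on both sides in the same direction, the lincRNA alone passed in 4 and the coding gene alone in 6 (r = 0.349, rho = 0.336). Of all genes tested 47.8% passed, and the matching share over other neighbouring genes was not measured. The concordant pairs were Neat1 with Frmd8 (1.27 and 0.37) and 1700001L05Rik with Pacsin2 (-0.78 and -0.25). Lockd, a transcript downstream of the cell cycle inhibitor gene Cdkn1b, stood at 36.6, 41.9, 39.4 and 35.8 CPM in WT and 32.6, 42.9, 52.2, 40.7 and 36.4 in DKO and did not pass (0.09 ± 0.10, adjusted p = 0.491). Cdkn1b went from 34.3 to 65.8 CPM (0.94 ± 0.08, adjusted p = 2.49e-12). Gm1070 fell (-1.06) beside Krcc1, which did not pass (-0.20). C920006O11Rik and Gm20300 did not pass (0.44 and 0.57), the latter beside Hint3 (0.52), which did.

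Pvt1, which lies 52595 bases after the start of the growth regulator Myc, differed from its neighbour in direction. Pvt1 had 5.53, 5.49, 5.44 and 3.98 CPM in WT and 7.63, 7.36, 9.52, 7.59 and 10.4 in DKO, without overlap (0.73 ± 0.18, adjusted p = 0.00126). Myc went from 3.56 to 1.99 CPM (-0.85 ± 0.31, adjusted p = 0.0223). Exons of Gm27913, Gm27718 and Gm27957 on the same strand and of H2afy3 on the other overlap those of Pvt1. Trp53cor1, known as lincRNA-p21 and placed beside the p53 target Cdkn1a, stood at 2.98 to 5 CPM in WT and 2.19 to 3.76 in DKO and did not pass (-0.30). Of 5 tested transcripts linked to p53, Neat1, Pvt1 and Gas5 rose, and Trp53cor1 and Tug1 (0.30) did not pass, where 47.8% of all genes passed and 23.9% were higher.

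Chromosome 8 held the 2 largest falls and the highest share of falling members among chromosomes with at least 5. Of its 7 members 5 fell, Gm45752 rose and 2010320M18Rik did not pass, with a median log2 fold change of -1.63. Over all genes tested, 24.0% fell and 23.9% rose. Tested genes on this chromosome that start after Klf2 had a median of -0.60 (n = 359), and those before it 0.42 (n = 304). The part of that shift in the members' changes was not tested. Gm42047 (plus strand, 121833247 to 121841178) had counts of 28, 36, 52 and 53 for WT and of 1, 1, 0, 0 and 0 for DKO. After scaling by library size, WT held 98.1 times as many (95% exact interval 26.7 to 817, counting error only). D030068K23Rik (plus strand, 109075222 to 109273811) had counts of 34, 47, 31 and 37 for WT and of 0, 2, 0, 1 and 1 for DKO, a ratio of 43.3 (16.5 to 161). Both were close to absent from the libraries labelled DKO, and reached the level threshold of membership through WT alone.

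Gm31659 (95808552 to 95818274, minus strand) had 44.1, 42.2, 47.6 and 49.6 CPM in WT and 16.0, 13.5, 13.8, 15.7 and 15.1 in DKO (-1.63 ± 0.10, adjusted p = 3.72e-16). The genes within 1 Mb had a median of -0.72. Gm2694 (-1.64, adjusted p = 6.18e-07) and Gm32856 (-1.17, adjusted p = 3.86e-04) also fell. The median within 1 Mb was -0.59 around Gm2694, and only 2 genes were tested around Gm32856. Gm45752, whose exons overlap Dpep3 and Dpep2 on the opposite strand, rose from 1.65, 1.37, 2.64 and 1.99 CPM to 4.04, 4.70, 5.58, 5.23 and 4.71 (1.33 ± 0.26, adjusted p = 6.18e-05), although the median within 1 Mb was -0.62. It was named after its values were seen. On chromosome 6, 4 of 8 members fell and none rose, where 24.0% and 23.9% of all genes did. The 559 tested genes of this chromosome had a median of 0.07. Lockd, Gm15706 and Gm21814 had values of 0.09, -0.16 and 0.07 beside local medians of 0.32 to 0.42. Of those that fell, 1810058I24Rik (-0.35), Halr1 (-1.35) and Gm1070 (-1.06) had local medians of -0.17, -0.27 and -0.30, in the same direction, and 1110019D14Rik had fewer than 5 tested genes nearby. Off chromosomes 6, 8, X and Y, 23 of 98 members rose and 21 fell, near the 23.9% and 24.0% of all genes. Across the 100 members with at least 5 tested genes within 1 Mb, the member's log2 fold change and the local median had r = 0.386 and rho = 0.264.

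**Figure D5:**
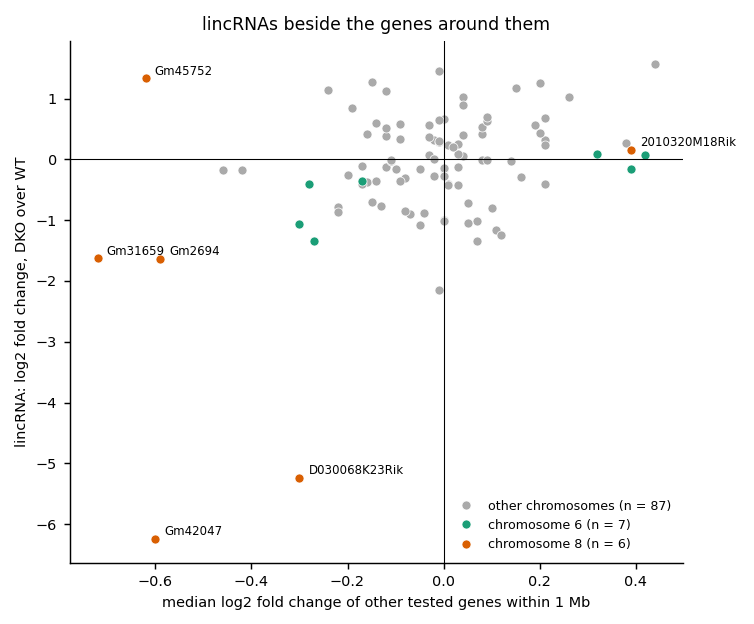
Log2 fold change of DKO over WT for 100 lincRNAs (y axis) against the median of the other tested genes within 1 Mb (x axis), with chromosome 8 in orange, chromosome 6 in green and others in grey. Of the orange points 5 lie to the left of 0, where Gm45752 alone is above the line.

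By coordinates 6 members held an annotated microRNA, of which Snhg20 and Gm4675 rose and 4 did not pass, where 47.8% of all genes passed. Mir17hg (chromosome 14, 115042879 to 115046727, plus strand), the host of a cluster that promotes proliferation, had 9.87, 5.49, 7.35 and 6.68 CPM in WT and 5.23, 7.05, 7.88, 12.2 and 9.42 in DKO. The groups overlapped (0.18 ± 0.20, adjusted p = 0.505). Mature microRNAs are not measured by this kit. Their RefSeq sequences (GRCm38.p6) are shown because Mir17hg is their host, though its reads do not give their levels. The seed (bases 2 to 8) is in capitals. miR-17 and miR-20a share a seed, as do miR-19a and miR-19b.
mmu-miR-17-5p: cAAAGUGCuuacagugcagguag
mmu-miR-20a-5p: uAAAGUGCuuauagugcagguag
mmu-miR-19a-3p: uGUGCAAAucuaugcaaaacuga
mmu-miR-19b-3p: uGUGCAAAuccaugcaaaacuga
mmu-miR-18a-5p: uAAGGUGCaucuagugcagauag
mmu-miR-92a-3p: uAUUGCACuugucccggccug
6720427I07Rik, which holds members of the let-7 family, did not pass (adjusted p = 0.0682) and was named after its values were seen.

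Rises and falls were counted by transcript structure and by overlap, with no test between the classes. Over all genes tested 23.9% rose and 24.0% fell, the shares beside which these counts stand. The 97 with 2 or more exon blocks had 18 rises and 28 falls (median -0.13), and the 17 with a single block had 7 rises and 2 falls (0.37). Of 25 members whose exons overlap an exon of another gene 10 rose and 3 fell, and of the 89 without such overlap 15 rose and 27 fell. For overlapping genes the counts may include or lose reads of the partner. Transcripts with an official name rose in 12 and fell in 8 of 31 cases, and those with a Gm or Rik name in 13 and 22 of 83.

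RefSeq promoters (GRCm38.p6, 250 bases before to 50 after the start) were found for 67 members, with 74 promoters in all. They had a median GC content of 52.7% and a ratio of observed to expected CpG of 0.49, beside 61.3% and 0.77 for promoters of genes tested and 52.7% and 0.38 for all promoters of the table. The motifs CCCCNCCC, TCAAGGTCA and ATGCAAAT were sought on both strands. CCCCNCCC, the core of the GC-rich boxes that KLF and SP factors bind, occurred in 31.1% of member promoters and 33.2% of all promoters of the table. TCAAGGTCA, the ESRRB-type site, occurred in 0 of 74 and in 0.423% of all. ATGCAAAT, the octamer bound by POU factors such as OCT4, occurred in 6 of 74 (8.11%) and in 1.74% of all. A match is a run of letters and not a measured site.

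The octamer-bearing promoters belonged to Tmem250-ps, which rose, Gm10451 (-0.71) and Gm32856, which fell, and Gm21814 and 2700038G22Rik, which did not pass. Gm32856 had it in both of its promoters, which overlap. Promoters of Gm21814 on chromosome 6 and Gm32856 on chromosome 8 are related copies, with 222 of 280 aligned bases identical (79.3%), so reads of these genes may be shared if the copies extend into their exons. The promoters of Tmem250-ps (chr2:26139494-26139793, minus strand) and Gm10451 (chr12:76444247-76444546, plus strand) are shown as examples of the octamer, in capitals, which lies 35 and 38 bases before the RefSeq start. The GENCODE start of Tmem250-ps lies 978 bases from that RefSeq start, so its position holds for the RefSeq start alone, while for Gm10451 both starts coincide.
Tmem250-ps: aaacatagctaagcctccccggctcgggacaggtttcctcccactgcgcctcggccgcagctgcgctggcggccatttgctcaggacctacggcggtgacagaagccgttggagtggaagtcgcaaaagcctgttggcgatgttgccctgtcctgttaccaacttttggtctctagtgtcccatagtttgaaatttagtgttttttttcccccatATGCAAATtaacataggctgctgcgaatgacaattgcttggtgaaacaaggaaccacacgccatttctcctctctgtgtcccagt
Gm10451: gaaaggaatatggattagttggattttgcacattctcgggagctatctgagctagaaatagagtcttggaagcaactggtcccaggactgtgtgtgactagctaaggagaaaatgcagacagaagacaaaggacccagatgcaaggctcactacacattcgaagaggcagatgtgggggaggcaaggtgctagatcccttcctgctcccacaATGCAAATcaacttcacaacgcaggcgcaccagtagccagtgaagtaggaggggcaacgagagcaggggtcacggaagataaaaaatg
Gm10451 had 11.3 to 16.6 CPM in WT and 6.89 to 9.72 in DKO.

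The promoter of Snhg18 (chr15:32244613-32244912, minus strand) is shown because it spans the starts of both Snhg18 and Sema5a, which both fell. It held 6 matches of CCCCNCCC on either strand, some overlapping, which are in capitals.
Snhg18: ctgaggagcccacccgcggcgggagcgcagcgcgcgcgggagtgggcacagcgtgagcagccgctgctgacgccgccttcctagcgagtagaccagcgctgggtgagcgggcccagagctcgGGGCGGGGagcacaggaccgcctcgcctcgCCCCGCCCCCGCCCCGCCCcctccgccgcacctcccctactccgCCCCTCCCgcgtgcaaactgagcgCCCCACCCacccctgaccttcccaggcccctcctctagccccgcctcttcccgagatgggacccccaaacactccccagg
Its GC content was 75.3%. Promoters of members that rose, fell or did not pass held this motif in 31.2%, 30.4% and 31.4% of cases.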

How the data were processed

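Messenger RNA 3′ ends were read in 9 libraries from V6.5 ES cells, 4 labelled WT and 5 labelled DKO. The authors deposited whole-number exon counts per gene, without normalization. The submitters' processing notes name mm10, cutadapt, STAR, featureCounts and DESeq2. Not given in the sources used here are versions, annotation release, strand setting and the rule for multi-mapped reads, so reads of overlapping or near-identical genes may be shared or lost.

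The table's 52550 identifiers were matched to GENCODE mouse release 21 (52403 matched, 147 not), which gave biotypes, symbols and positions on mm10. Promoters and mature microRNAs come from RefSeq tables of GRCm38.p6, the same build. Counts were filtered with filterByExpr by group, scaled by TMM and tested over all 9 libraries with the robust quasi-likelihood test of edgeR 4.0.16 (R 4.3.3), with Benjamini-Hochberg adjustment over 11893 genes and 0.05 as the threshold. Log2 fold changes set DKO over WT. Total counts per library ran from 6035642 to 7098530 (counting error alone is behind intervals and floors). The chi-square per degree of freedom of counts lay between 2.22 and 4.98 over the 16 pairs of libraries within a group, so none looked like 1 library deposited in duplicate. The fitting script was tested on simulated data.

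Members and lists were chosen with earlier results of these data known. Named members were all tested ones on the lists of noncoding transcripts. To these were added the 12 largest rises and 12 largest falls that passed, had a group mean of 5 CPM and no overlap between groups, the 10 most abundant, the 3 just inside and 3 just outside the threshold, 6 of each kind of neighbour pair, and the 4 most abundant that did not pass. A few more are named because a count of 5 or fewer or a shared motif singled them out, after their values were seen. Alternatives were DESeq2 size factors, the DESeq2 1.42.0 Wald test, other filters and membership levels, each library left out, a replicate block, and members left out by chromosome, overlap or position. Some genes of the protein lists are not reported here.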

Additional observations from a re-analysis of the deposited data

Results flagged for a closer look

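In 5 of the 108 groups of named members checked, 1 library stood apart from the rest of its group by Dixon's criterion, which chance meets in about 1 of 20 groups. Pvt1 was at 3.98 CPM in WT 4 and at 5.44 to 5.53 in the other WT libraries. Gm26564 was at 6.13 CPM in DKO 1 and at 3.45 to 4.10 in the other DKO libraries. 1700031P21Rik was at 7.22 CPM in DKO 3 and at 3.74 to 4.23 in the others. Gm11496 was at 5.49 CPM in WT 2 and at 4.11 to 4.19 in the others. Gm15728 was at 2.35 CPM in WT 3 and at 0.898 to 1.14 in the others. All are low in count, and no single library recurs among them. The calls of Pvt1, Gm26564, 1700031P21Rik and Gm11496 held in every fit in which they were tested, and that of Gm15728 ended without WT 1 or DKO 4.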

How the results depend on the processing

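Of the 55 members that passed, 44 (19 higher, 25 lower) passed in every one of the 14 alternative fits in which they were tested, and 11 lost the call when some library was left out. No named member changed direction in any of these fits. Leaving out each library in turn gave 20 to 27 rises, 26 to 31 falls and a median log2 fold change of -0.08 to -0.02. In these fits 43.7% to 48.5% of all genes passed. A filter of 5 CPM in 4 libraries left 60 members to test, with 12 rises and 16 falls, where 51.0% of all genes passed. A membership level of 5 CPM left 56 members, with 12 rises, 15 falls and a median of -0.12. Both settings count fewer members by construction. Without members that overlap exons of other genes 15 of 89 rose, with a median of -0.13, and without members just downstream of a coding gene the median over 95 was also -0.13. With no filter on low counts 24485 genes were tested and 24.8% passed, but 23 members rose and 31 fell. Same-numbered WT and DKO libraries deviated together with r of 0.0862, -0.000237, 0.0883 and 0.039. Libraries of different numbers gave -0.0764 to 0.0531. All values were low, and whether the numbers pair the libraries cannot be settled from them. With the replicate number as a block, on 8 libraries, 24 members rose and 31 fell, with a median of -0.07, where 46.7% of all genes passed.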
